A study of Mus musculus with 10 samples.

Results

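The Pparg locus was examined in 3T3-L1 pre-adipocytes, mouse fibroblast-like cells that can turn into fat cells in culture, harvested 4 h after induction of differentiation. It was taken as the stretch of chromosome 6 from 115210000 to 115540000 on build mm9. The stretch holds both Pparg promoters, with starts near 115311000 and 115372000, the gene end near 115440000 and about 100 kb on either side. The DNase I hypersensitive (DHS) sites that overlap it, and the footprints inside those sites, were its members. DHS sites are stretches where nuclear DNA is cut readily by DNase I, that is, open chromatin, and footprints are short stretches within them with few cuts, as bound protein leaves. There were 35 such sites of 129028 in the list, with 251 footprints of 329076, and another 10116 sites lay elsewhere on chromosome 6. The members were chosen by position alone.

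All values come from a single group. Post-confluent pre-adipocytes were induced for 4 h with insulin at 1 µg/mL, the glucocorticoid dexamethasone at 1 µM and the phosphodiesterase inhibitor 3-isobutyl-1-methylxantine at 0.5 mM, in medium with 10% FCS. The labels name 2 DNase samples, one marked as paired-end, both of 1 library that was also pooled with earlier reads, so there are no replicates, and DNase data from uninduced cells were not used here. No test over samples was possible, and comparisons below are descriptions, set beside the same measure over all sites where the locus as a whole is described. The 8 RNA-seq samples (scrambled shRNA or shRNA against C/EBPβ, at 0 h and 4 h, 2 per group) were not analysed here, so neither Pparg mRNA nor markers of the labelled cell type could be checked.

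PPARγ, the product of Pparg, is a nuclear receptor that binds DNA with RXR and is required for fat cell formation. The gene is read from separate promoters. The upstream one gives PPARγ1, found in many cell types, and the downstream one gives PPARγ2, found mainly in fat cells, which carries extra residues at its amino terminus. C/EBPβ and C/EBPδ act early in adipogenesis, and Pparg is among the genes they are known to induce. The full adipocyte programme, with C/EBPα, follows later.

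The sequences of the promoters are shown because the DHS sites over both promoter positions differed in the number and score of their footprints. RefSeq lists 3 starts of Pparg on build GRCm38.p6, all on the plus strand. Each line gives the 250 bases before a start, 5′ to 3′. Capitals mark matches, on either strand, to 9 short motifs: TATAAA for the TATA box, CCAAT for the NF-Y box, GGGCGG for the GC box, TTNNGCAA for the C/EBP type, TGANTCA for the AP-1 type, TGACGTCA for the cyclic AMP response element, AGAACA for the glucocorticoid receptor, AGGTCA for nuclear receptors such as PPARγ and RXR, and TTCNNNGAA for the STAT type. These positions are on another build than the DHS list, and none was carried over. The letters under the footprints themselves were not used here.
Upstream start, chr6:115360894-115361143: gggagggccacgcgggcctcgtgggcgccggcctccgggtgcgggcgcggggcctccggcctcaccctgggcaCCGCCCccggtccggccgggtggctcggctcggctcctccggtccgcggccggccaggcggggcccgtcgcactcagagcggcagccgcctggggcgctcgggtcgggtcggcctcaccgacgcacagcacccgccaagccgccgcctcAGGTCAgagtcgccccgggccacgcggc
Middle start, chr6:115362099-115362348: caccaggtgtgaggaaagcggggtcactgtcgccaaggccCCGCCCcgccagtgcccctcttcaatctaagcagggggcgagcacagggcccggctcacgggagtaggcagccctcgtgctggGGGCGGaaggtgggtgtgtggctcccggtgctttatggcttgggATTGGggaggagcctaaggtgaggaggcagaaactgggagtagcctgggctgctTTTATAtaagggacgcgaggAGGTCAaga
Downstream start, chr6:115421816-115422065: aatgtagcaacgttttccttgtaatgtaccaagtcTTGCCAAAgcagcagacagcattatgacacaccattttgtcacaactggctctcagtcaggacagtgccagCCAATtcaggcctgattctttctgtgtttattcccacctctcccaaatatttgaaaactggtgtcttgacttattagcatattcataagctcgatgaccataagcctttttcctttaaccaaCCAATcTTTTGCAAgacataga

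The promoters differ in base composition along the gene. The bases before the upstream start were 82.4% G or C with 38 CpG pairs, and those before the middle start, 1205 bases further on, were 63.6% G or C with 12. Before the downstream start, 60.9 kb from the upstream one, 40.8% were G or C, with 2 CpG pairs. Over 32536 distinct RefSeq promoter sequences of this length, the median was 52.4% G or C with 6 CpG pairs. The C/EBP-type motif was matched only before the downstream start among the 3, as TTTTGCAA from 16 to 9 bases before it and as TTGCCAAA from 215 to 208 bases before it. Of all promoters of this length, 9.57% held this motif. The NF-Y box was matched at 2 places before the downstream start and at 1 before the middle start (33.8% of all promoters), and none of these matches overlapped another motif. The exact motif TATAAA was matched before the middle start, on the reverse strand, at 29 to 24 bases before it (12.3% of all promoters). The plus strand there reads TTTATATAAG, and looser forms of the TATA box on either strand were not searched. GC boxes were matched before the upstream and middle starts (33.0% of all promoters), as was the nuclear receptor motif (14.0%). The AP-1, cyclic AMP response, glucocorticoid receptor and STAT motifs had no match in these windows. Of all promoters, 6.73%, 1.56%, 16.0% and 7.04% held them, so a lack of matches in 3 windows is usual.

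Open chromatin was frequent over the locus, and nearly every site carried a footprint. The 35 sites in 330 kb correspond to 106 sites per Mb, against 69.3 per Mb over chromosome 6 and 50.02 per Mb over all chromosomes, each measured from the first to the last site. When every chromosome was cut into windows of 330 kb, 1.79% of the 7804 windows held 35 or more sites and 0.705% held 251 or more footprints. On chromosome 6 alone these shares were higher, at 6.77% and 1.81% of 443 windows. Of the 35 sites, 33 (94.3%, exact binomial 95% interval 80.8 to 99.3%, for counting error only) held at least 1 footprint. The background was 45.4% of all sites and 45.2% of the sites elsewhere on chromosome 6. The 2 sites without a footprint lay 82.2 kb before the upstream promoter (684 bp wide) and 1.29 kb after it (267 bp wide). With the stronger 50% of all footprints alone, 21 of the 35 (60.0%) held 1, against 27.8% of all sites. None of these backgrounds was matched for width, and wide sites hold more footprints.

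Sites of the locus were wide, and held more footprints than their width alone predicts. Their median width was 717 bp (range 253 to 1476 bp), against 532 bp for all sites, and 14 of the 35 (40.0%) were as wide as the widest 20% of the list. The 251 footprints gave 9.26 per kb of site sequence, against 4.08 over all sites and 4.26 elsewhere on chromosome 6. From the mean number of footprints in sites of like width, 143 would be predicted, so that the observed number was 1.75 times the prediction (Poisson 95% interval 1.54 to 1.98, for counting error only). The same ratio was 1.11 for the rest of chromosome 6. Single sites followed the same direction, with 29 of 35 (82.9%) above their own prediction, where the background was 29.9% of all sites. That background share was not matched for width, and sites of the locus were wider than the list. Across the 35 sites, which share 1 library, width and footprint number had a Spearman rho of 0.70, against 0.72 over all sites. Read depth does not come with the lists, so more binding and more cuts per site cannot be told apart.

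**Figure D1:**
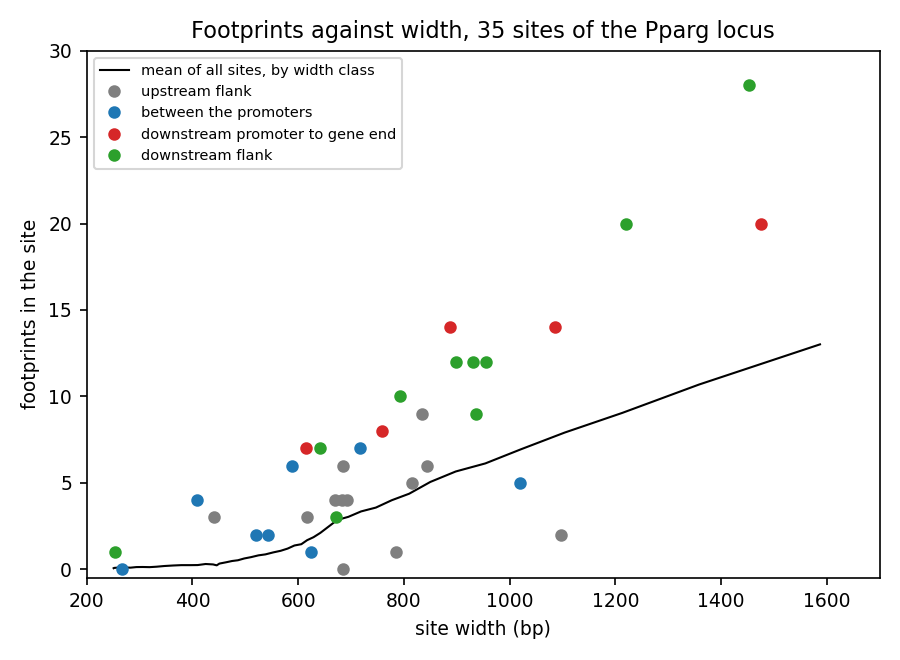
Number of footprints (vertical axis) against site width in bp (horizontal axis) for the 35 sites, coloured by position in the locus, with the mean of all sites of like width as a line. Of the 35 points, 29 lie above the line, and all 15 sites from the downstream promoter on are among them.

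Sites held more footprints, and more per kb, from the downstream promoter on. The 20 sites before the site over that promoter held 74 footprints, a median of 4 per site and at most 9. The 15 sites from that promoter on held 177, a median of 12 per site and up to 28, although both sets covered nearly equal lengths of open chromatin (13.5 and 13.6 kb). Density was thus 5.47 footprints per kb before the downstream promoter and 13.04 per kb from it on, and the ratio to the prediction from width was 1.26 and 2.09. Relative to width, however, the part between the promoters lay closer to the parts after it than to the flank before the gene, although its interval overlaps those of all 3. The ratio was 1.09 in the flank before the gene (Poisson 95% interval 0.801 to 1.45) and 1.74 between the promoters (1.15 to 2.54). It was 1.98 from the downstream promoter to the gene end (1.52 to 2.53) and 2.16 beyond the gene (1.78 to 2.60). These intervals are for counting error only and leave out the spread between sites. Beyond the gene, for example, footprints per site had a mean of 11.4 and an SD of 7.86. A count of 10 or more footprints was found in 0 of the 20 sites and in 9 of the 15. The background is 7.88% of all sites, not matched for width. This dividing point was chosen after the values were seen.

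**Figure D2:**
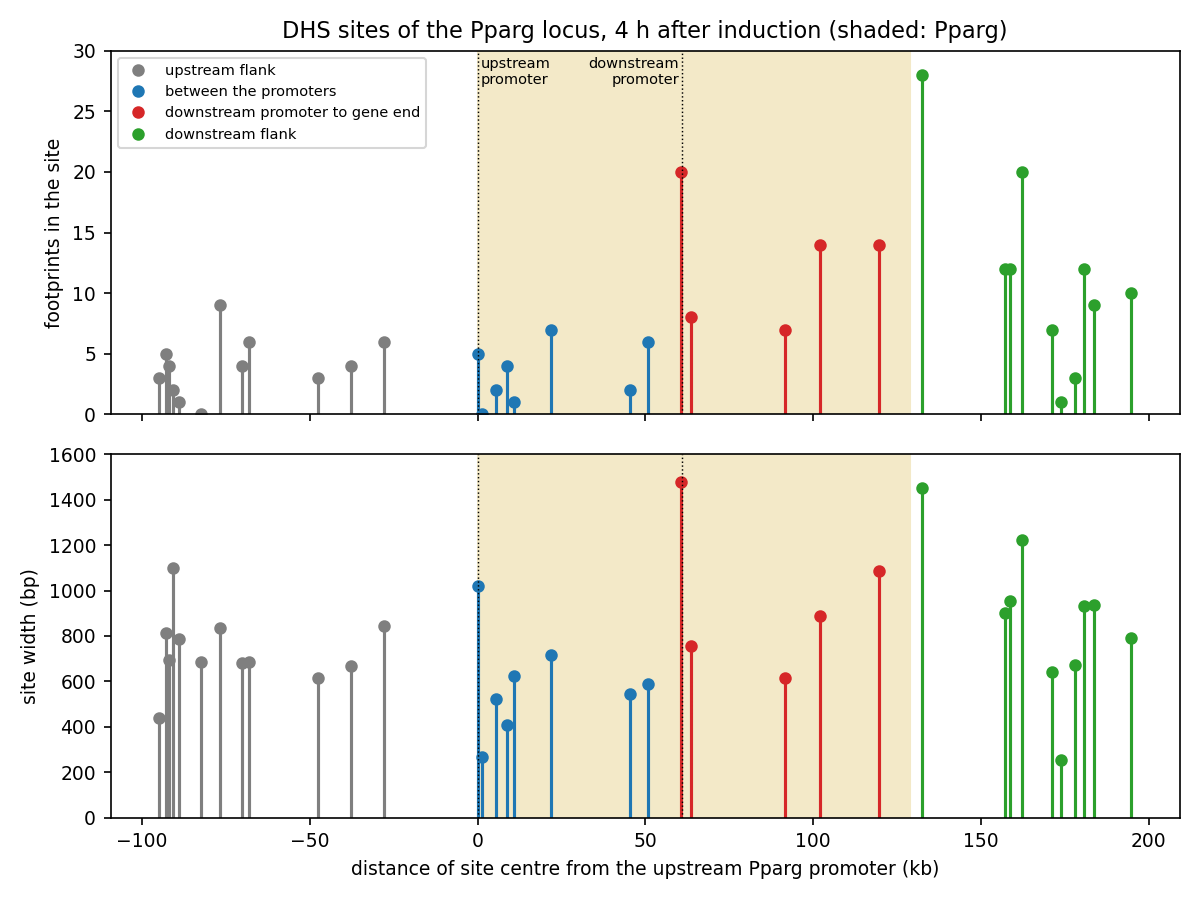
Number of footprints (upper panel) and width in bp (lower panel) of each DHS site against the distance of its centre from the upstream promoter in kb, with Pparg shaded and the promoters as dotted lines. Sites before the downstream promoter hold at most 9 footprints, whereas those from it on reach 28.

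By position, 12 sites lay before the upstream promoter, 8 from it to the downstream promoter, 5 from there to the gene end and 10 beyond the gene. Sites were closest together between the promoters (131 per Mb) and sparsest from the downstream promoter to the gene end (73.5 per Mb), yet the latter had 13.1 footprints per kb of site against 5.76. Its sites were also wider (median 888 against 566 bp), and relative to width the intervals of these parts overlap, as given above. Beyond the gene, 10 of 10 sites held a footprint, at 13.03 per kb, and these 10 sites contained 114 of the 251 footprints (45.4%). The flank before the gene had 5.31 per kb. Whether sites of the flanks belong to other genes was not tested.

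The site over the upstream, PPARγ1 promoter was wide but had weak footprints, and somewhat fewer than its width predicts. It ran from 115310699 to 115311717, and its 1019 bp placed it among the widest 11.1% of all sites. It held 5 footprints where 6.93 were predicted, and 19.3% of all sites, not matched for width, held as many or more. Its density was 4.91 per kb, against 9.26 over the locus sites and 4.08 over all sites. The 5 footprints covered 9.62% of it, where footprints cover 17.6% of the locus sites and 8.19% of all sites. The footprint score is the authors' own value, negative throughout, on a scale not given in the sources used here, and a lower value was taken as a stronger footprint. Within this site the strongest was -4.10 and their median was -3.79, weaker than the median of -4.38 over all finite scores. All 5 lay within 279 bp, from 115310885 to 115311163, a stretch that includes the approximate start position.

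The site over the downstream, PPARγ2 promoter was the widest of the locus. It ran from 115370804 to 115372279 (1476 bp) and held 20 footprints, a number that only 1.497% of all sites reach. At 13.6 per kb, its footprint number was 1.54 times that prediction, below the ratio of 1.75 over the locus. Its footprints fell into a pair of blocks with 394 bp free of footprints between them, the longest such gap inside a site of the locus. The first block, 187 bp from 115371101 to 115371287, had 9 footprints with a median score of -6.95, and its strongest, -11.3 at 115371140 to 115371168, was as strong as the top 1.84% of the list. The second block, 373 bp from 115371682 to 115372054, spans the approximate start position and had 11 footprints with a median of -4.86 and a strongest of -6.89. The stronger block thus lay upstream of the block over the approximate start position. That position is close to the end of the second block, and whether the exact start lies inside the block was not tested. The next site, 2.24 kb after the start, held 8 footprints in 758 bp with a strongest score of -7.31.

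Further into the gene, footprints were dense at 3 more sites. The site from 115402360 to 115402973, 30.4 kb after the downstream start, had 7 footprints in 614 bp, 4.17 times its prediction. The site from 115412729 to 115413616, 40.7 kb after that start, had 14 footprints in a single run of 505 bp. They covered 32.2% of its 888 bp, more than in any other site of the locus, and the strongest was -12.1 (115413106 to 115413131), the third strongest of the locus. The site from 115430117 to 115431202, 8.80 kb before the gene end, also had 14 footprints, but in 3 blocks and with weaker scores (median -4.07, strongest -5.13). Equal numbers of footprints at these 2 sites therefore went with different scores.

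The site with the most footprints lay just beyond the gene. It ran from 115442689 to 115444141, 2.69 kb past the approximate gene end, and held 28 footprints in 1453 bp, or 19.3 per kb, the highest density of the locus. Only 0.461% of all sites held as many, and the prediction from its width was 10.7. Of the 28, 27 followed each other over 782 bp, with a strongest score of -10.7. A second broad site, from 115472583 to 115473803 (32.6 kb past the gene end), held 20 footprints in 1221 bp, all in a run of 772 bp, with a strongest score of -7.66. Together, the 5 sites with 14 or more footprints held 96 of the 251 (38.2%). Without them the locus still had 7.39 footprints per kb and 1.60 times the number predicted, a setting added after the data were seen.

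**Figure D3:**
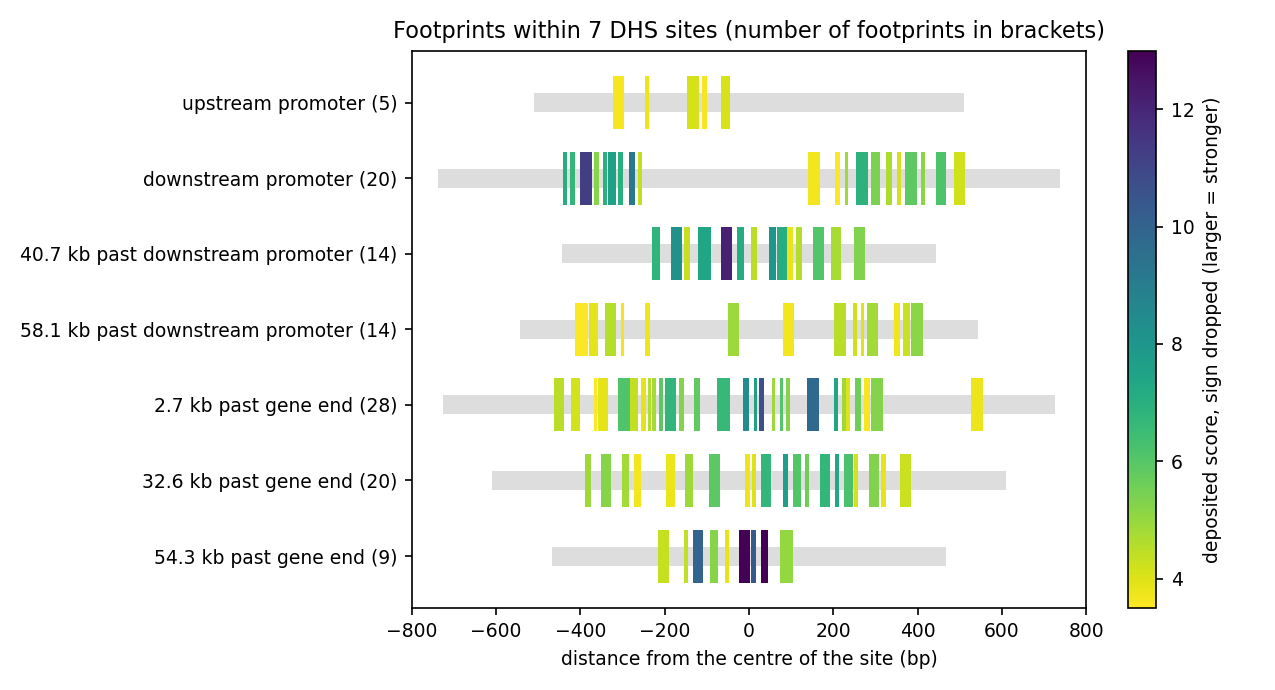
Footprints within the sites over both promoters, the 5 sites with the most footprints and the site with the strongest footprint, each drawn to scale around the site's centre in bp (grey bar: site; coloured boxes: footprints, darker for stronger scores). The site over the downstream promoter shows its 2 blocks of 9 and 11 footprints, and the site over the upstream promoter its 5 weak ones.

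The top footprints of the locus by score lay far from both promoters, although the site over the downstream promoter held one of -11.3. The 2 strongest, -13.05 (115494760 to 115494777) and -12.95 (115494708 to 115494733), lay 26 bp apart, with 1 other footprint between them, in a site of 936 bp, 54.3 kb past the gene end, with 9 footprints. They ranked within the strongest 1.06% and 1.09% of the list. The neighbouring site, from 115491378 to 115492307 and 51.4 kb past the gene end, had the strongest typical score of the locus, with a median of -8.57 over 12 footprints. Scores of -10 or stronger were reached by 8 footprints in 6 sites, 3.19% of the locus footprints against a background of 2.95% of the list, so their share was close to the background. No footprint of the locus had a score of -Inf.

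Scores were stronger from the downstream promoter on as well. Over the locus the median was -4.55, against -4.38 over the list, and 56.6% of its footprints were among the stronger 50% of the list. Without the 5 sites with the most footprints the median was -4.32, on the weaker side of the list's. Before the downstream promoter site the median was -4.08, the strongest value was -6.55 and 0 of 74 footprints reached the strongest 10% of the list. From that site on the median was -5.11, and 34 of 177 (19.2%) were in the strongest 10%. These medians pool footprints over sites, so sites with many footprints weigh most. Single sites varied: some from the downstream promoter on had medians weaker than the list's, and some before it had stronger ones. The dividing point was chosen after the values were seen. The sites within the gene before the downstream promoter were no stronger than the flank before the gene, with medians of -4.07 and -4.09. Footprints were also narrower from the downstream promoter on, with a median width of 16 bp against 22 bp before it, where the list has 21 bp. The limit of 30 bp on footprint width was met by 5.65% and 12.2% of them, against 11.6% of the list.

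**Figure D4:**
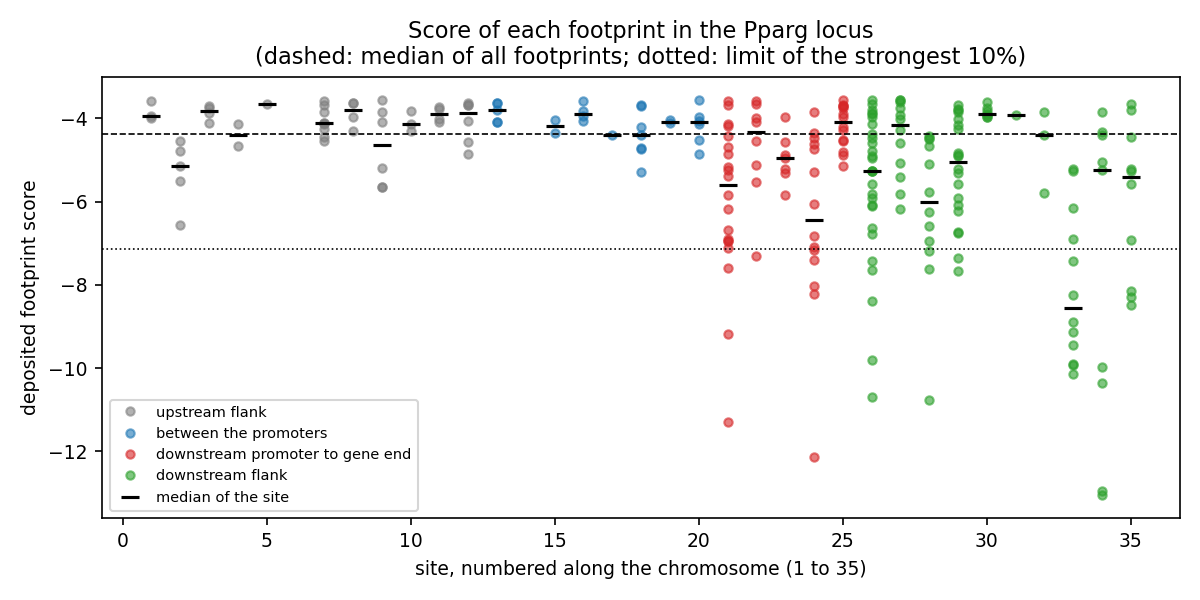
Deposited score of each of the 251 footprints by site, numbered 1 to 35 along the chromosome and coloured by position, with the median of each site as a black bar, the list's median as a dashed line and the limit of its strongest 10% as a dotted line. The 34 footprints below the dotted line lie in sites 21 to 35, from the downstream promoter on.

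Neighbouring sites of the locus lay a median of 4914 bp apart, against 7725 bp elsewhere on chromosome 6 and 10269 bp over all sites. Of its 34 distances between neighbours, 25 (73.5%) were 10 kb or less, against 57.0% elsewhere on chromosome 6 and 49.3% over all sites. A joining distance of 10 kb left 10 groups, 4 of them with 1 site, and the number depends on that distance (18 at 5000 bp and 5 at 20000 bp). The group with the most footprints, from 115467645 to 115495199, lay beyond the gene and had 8 sites with 76 footprints in 27.6 kb. A group of 9 sites over 27.2 kb at the far end of the upstream flank had only 34. The upstream promoter stood in a group of 5 sites with 12 footprints over 11.5 kb, and the downstream promoter in a group of 4 with 36 over 18.8 kb. Stretches of over 20 kb without a site separated neighbours at 4 places, the longest (27.4 kb) within the gene after the downstream promoter. No site lay in the last 33.8 kb of the stretch examined.

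Footprints of the same site lay close together. Among 218 gaps between neighbouring footprints the median was 17 bp, against 20 bp over all sites, and 64 (29.4%) were under 10 bp, against 24.4%. Gaps over 100 bp made up 3.67%, against 8.68%, and of the 30 sites with at least 2 footprints, 23 (76.7%) had no such gap, against 64.9% of all sites with at least 2. These comparisons were not matched for width or for footprint density, which was 9.26 per kb in the locus and 4.08 over all sites. Whether gaps were short beyond that density was not tested. The mean distance of a footprint from the centre of its site was 0.294 on a scale from 0 at the centre to 1 at the edge, and 0.292 over the list.

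At the limits of the stretch, the outermost members were a site of 440 bp with 3 footprints, 5.95 kb inside its start, and a site of 792 bp with 10 footprints. Just outside lay a site of 604 bp with 7 footprints, 11.8 kb before the start, and one of 1130 bp with 8 footprints, 11.5 kb after the end.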

How the data were processed

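DNase-seq of 3T3-L1 nuclei at 4 h was deposited as a list of DHS sites and a list of footprints. Per the labels, both were called by the authors on reads of 1 library pooled over its runs. As given above, that library was also pooled with earlier reads. The build is mm9 and HOMER is named per the submitters' processing notes. For footprints the caller was not given in the sources used here, and the site list has positions only. The deposited footprint score, headed as a p-value per the file headers, is negative (highest -3.54, 496 at -Inf) and was used only for ranking. Read depth is unknown.

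Starts were raised by 1 from the BED form. Sites overlapping the stretch by at least 1 bp were taken, with promoter and gene end positions as approximate values not checked against an mm9 annotation. A site over a promoter counted with the part of the gene that begins there. All 251 footprints lay fully inside a site, and both counts were checked with bedtools 2.31.1. Predictions are mean footprint numbers in 50 width classes over all sites. On 16000 simulated sites the ratio to prediction came out as 1.03 and 1.93 where 1 and 2 were put in. Counts there were Poisson with a mean set by width, so this checks the steps only. It does not show how far a ratio over few sites can vary. Blocks were split at gaps over 100 bp. Sites described singly are those over the promoters, the 5 with the most footprints, the widest 3 and those of the 3 strongest footprints. Any other was chosen after its values were seen, as were the promoter motifs. The locus and measures were chosen with earlier results of these data known. Promoter sequences are RefSeq's (GRCm38.p6). Alternatives were fewer or more width classes, chromosome 6 as reference, the stronger 50% of footprints, footprints at 30 bp left out, merging within 2 bp, the wider 50% of sites, shorter flanks, assignment by centre and joining at 5000 or 20000 bp. Python 3.11.15, numpy 2.4.6, pandas 2.3.3, scipy 1.17.1 and matplotlib 3.10.9 were used. Genes next to Pparg are not reported here.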

Additional observations from a re-analysis of the deposited data

How the results depend on the processing

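No paired analysis was possible because sites and footprints were each called once, on pooled reads without replicates. Of 24 values under alternatives, 15 stayed within their counting interval (counts within 1.5 times), 8 moved and 1 reversed. With footprints limited to the stronger 50%, 60.0% of sites held 1 (27.8% of all sites, not matched for width). Density was 5.24 per kb (2.04 over all sites), as fewer footprints remain, and the ratio to the prediction was then 1.95. Dropping the outer 50% of each flank left 23 sites with 10.5 footprints per kb and a ratio of 1.99. Leaving out the 5 sites with the most footprints, chosen after the data were seen, gave 7.39 per kb and reversed the median score, which at -4.32 was weaker than the list's -4.38 instead of stronger, as the 96 footprints of those sites drop out. Joining at 5000 bp gave 18 groups and at 20000 bp 5. The ratio to prediction lay between 1.60 and 1.99 under all settings run. Unknown read depth limits every count of footprints.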

Other observations

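A few sites departed from their width in either direction, and were chosen after their values were seen. The site from 115319567 to 115319974, 8.57 kb after the upstream promoter, was only 408 bp wide but held 4 footprints, where sites of like width hold 0.239 on average. All 4 were weaker than the list's median of -4.38, with a strongest score of -4.07 and a median of -3.88. A site of 253 bp beyond the gene (115484636 to 115484888) held 1 footprint, of 30 bp, where the average is 0.0745. Its score of -3.92 was also weaker than the list's median. In contrast, the site from 115219650 to 115220747 in the upstream flank was 1098 bp wide and held 2 footprints, where the average is 7.90. The site from 115228141 to 115228824 in the same flank held none in 684 bp, where the average is 3.03.

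RefSeq lists a middle Pparg start 1205 bases after the upstream one on GRCm38.p6. On mm9 a narrow site without footprints (115312286 to 115312552) began 1.29 kb after the approximate upstream position. Whether this site covers the middle start was not tested, since positions were not carried between builds.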
